A study of Mus musculus with 7 samples.

Results

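The replication-dependent histone genes were taken as every gene whose symbol starts with Hist1h, Hist2h, Hist3h or Hist4h. This gave 34 of the 13587 genes listed in any of the 6 deposited tables, and each of the 34 was listed in all 6. They comprised 4 H1, 7 H2A, 9 H2B, 5 H3 and 9 H4 genes, with 28 in the Hist1 cluster on chromosome 13, 3 in Hist2 on chromosome 3, 2 in Hist3 on chromosome 11 and 1 in Hist4 on chromosome 6. Hist3h2bb-ps is annotated as a processed pseudogene. The reference annotation (GENCODE M21, GRCm38) holds 70 genes of these names, and the other 36 were not analysed here.

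Core histones (H2A, H2B, H3 and H4) form the nucleosome that wraps DNA, and linker histone H1 binds where the DNA enters and leaves it. The clustered genes are transcribed mainly in S phase, when new chromatin is assembled on replicated DNA. Their messages typically end just after a short stem-loop that is bound by the stem-loop binding protein (Slbp) and carry no polyA tail, whereas polyadenylated forms of some of these genes are known from differentiated and non-dividing cells. Levels in a polyA-selected library therefore count the tailed forms and whatever untailed message passes the selection, and these cannot be told apart here.

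The cells were B16, a melanoma line of C57Bl/6 mouse origin, used as 1 stable clone and kept below 5 passages. Detached cells were given a 5 h pulse of 10 nM recombinant mouse interferon gamma (IFNγ), a cytokine that activated lymphocytes release, or a mock pulse of medium alone. After 3 washes they were plated in duplicate in multiwell plates, with 35000 cells in a well, and polyA RNA was profiled at 23.5, 48 and 91 h. An unpulsed group at 0 h is called T0, and all other groups carry the same line and culture. Each of the 7 groups has 1 deposited sample holding a mean, from which the whole reads of 2 libraries were recovered by arithmetic. Values below are normalised reads of those libraries, on 1 scale through T0, and SDs are over 2 libraries. The labels do not say whether the duplicates are separate cultures, so p-values rest on the spread within these library pairs, and that spread may be technical.

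The 14 libraries held 12894823 to 23223947 reads in recovered genes, of which 0.0152% to 0.0562% fell in the histone genes (1961 to 10198 reads). The 2 IFNγ libraries at 48 h lay far apart, with an SD of 0.419 of their log2 ratio over genes of at least 1000 normalised reads, against 0.0668 to 0.150 in the other groups. All 7 melanocyte markers were listed (4372 to 241038 normalised reads). Of the markers of other cell types, 1 of 5 T cell (Lck), 1 of 5 myeloid (Cd68), 2 of 4 fibroblast (Col1a1 and Pdgfrb), 1 of 4 endothelial (Vwf) and 0 of 2 keratinocyte genes were listed. Between IFNγ and mock at 23.5 h Lck differed by 0.81 (limma adjusted p = 0.027), Vwf by 0.53 (0.0022) and Pdgfrb by -0.40 (0.037). At 91 h Cd68 differed by 1.49 (limma adjusted p = 0.00099) and Col1a1 by -0.97 (0.023). The part of other cell types in the histone results was not tested. Cd3e, Ptprc and Pecam1, which define T cells, leukocytes and endothelium, were not among the listed genes. Because RNA was taken from whole wells, fewer cycling cells and less histone message per cell cannot be told apart.

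The 3′ stem-loop is printed first because messages that end at it carry no polyA tail, so it marks the transcripts that the caution on polyA selection concerns. The motif (GG, any 3 bases, TT, any base, T, any base, A, any 3 bases, CC) was searched on the sense strand of the GENCODE M21 transcripts and was found in 30 of the 34 genes, against 2023 of all 55450 genes (3.65%). The 30 genes held 8 forms of it. Capitals mark the 16 bases of the motif, with 7 bases on either side.
Hist1h1c: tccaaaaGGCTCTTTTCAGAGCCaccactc
Hist3h2a: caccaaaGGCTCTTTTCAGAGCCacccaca
Hist1h2bb: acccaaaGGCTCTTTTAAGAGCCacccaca
Hist1h4d: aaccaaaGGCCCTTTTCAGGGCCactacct
Hist2h4: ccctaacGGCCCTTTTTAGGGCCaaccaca
Hist1h3g: ctttaaaGGCTCTTCTTAGAGCCacccatc
Hist1h4a: aaccaaaGGCCCTTCTCAGGGCCgcccaca
Hist2h2ac: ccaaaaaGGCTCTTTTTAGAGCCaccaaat
Hist1h4b: tacaaaaGGTCCTTTTCAGGACCactcact
The form of Hist1h1c and Hist3h2a stood in 13 genes of the H1, H2A, H2B and H3 families, and the form of Hist1h2bb in 6. The form of Hist1h4d was found in 5 H4 genes and that of Hist2h4 in 2, while the other 4 forms stood in 1 gene each. No motif was found in the annotated transcripts of Hist1h2bc, Hist2h2be, Hist1h2af and Hist3h2bb-ps, which says only that these letters are not in the annotated sequence. The annotated transcript ran at most 100 bases past the motif in 12 genes (a short end, 11 to 74 bases) and further in 18 (a long end, 108 to 4884 bases).

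Near-identical copies limit what was counted. In 5 of the 6 tables, all but that of IFNγ at 23.5 h, reads with more than 1 alignment stand in an entry of their own, at 21.15% to 23.9% of the listed total. The share of a gene's 50-base windows that also occurred in another annotated gene had a median of 39.8% over the 34 genes. It exceeded 50% in 9 genes, reached 94.0% in Hist1h2af, and was 0 in Hist1h1t and Hist2h2be. Levels of the genes with many shared windows are therefore uncertain. Exons of Hist1h1e and Hist1h2be overlap on the same strand (25.7% and 11.2% of their exon bases lie under another gene), as do 33.0% of those of Hist3h2a with Trim17 or Gm44313, and in the same 5 tables ambiguous reads were also set apart (6.52% to 8.30% of the listed total). Exons of 8 of the genes also overlap a gene on the opposite strand, most of all Hist1h4b (56.2% of its exon bases), and whether counting used the strand is not given in the sources used here.

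In T0 the summed level of the 34 genes was 8031 and 9265 normalised reads in the 2 libraries. The H1 genes led with Hist1h1c (948 and 1121 normalised reads), Hist1h1e (651 and 829) and Hist1h1d (601 and 728), 3 linker histones expressed in most somatic cells. Hist1h1t, the testis linker histone, stood at 37.3 and 39.3. Divided by exon length, the order changed. Hist1h4f, at 773 normalised reads per kilobase, then came first, followed by Hist1h2bb (724), Hist1h1c (663), Hist2h2ac (603), Hist1h2bg (577) and Hist1h2ab (546). Hist3h2a (38.4), Hist1h1t (42.0) and Hist1h2ac (50.6) came last per kilobase. Within H3 the highest levels per kilobase were those of Hist1h3e (389), Hist1h3a (365.4) and Hist1h3c (365.4).

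At 23.5 h the IFNγ pulse was compared with the mock pulse. Most histone genes stood at less than their mock level, down to 35.0% of it: 28 of 34 were lower by limma at an adjusted p under 0.05 and 0 were higher, where 6.06% of all 12452 genes tested were lower and 8.55% higher. The summed level was 4206 and 5972 normalised reads after IFNγ against 9661 and 9014 after mock, or 54.5% of mock. H4 was lowest in proportion (44.8% of mock, 8 of 9 genes lower), then H2A (50.5%, 5 of 7), H3 (51.1%, 5 of 5), H1 (61.0%, 3 of 4) and H2B (62.3%, 7 of 9). The median log2 difference over the 34 genes was -1.05, against 0.0016 over all genes tested.

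Hist1h3g, an H3 gene, stood at 24.3 and 30.7 normalised reads after IFNγ and 73.9 and 83.3 after mock (log2 difference -1.49, SE 0.21, limma adjusted p = 0.00068). Hist1h4f, an H4 gene, had 114 and 135 against 343 and 307 (-1.38, SE 0.12, limma adjusted p = 8.2e-06). Hist1h4a had 64.8 and 126 against 277 and 218 (-1.43, SE 0.24, limma adjusted p = 0.0021). In these 3 genes both IFNγ libraries lay below both mock libraries. Hist1h2ab, an H2A gene, had 105 and 160 against 341 and 328 (-1.36, SE 0.16, limma adjusted p = 0.00014). Hist1h4b had 56.7 and 119 against 196 and 227 (-1.35, SE 0.26, limma adjusted p = 0.0042). The abundant Hist1h1d fell from 647 and 624 after mock to 224 and 349 (-1.18), Hist1h1e from 784 and 704 to 345 and 451 (-0.91), and Hist1h4d from 575 and 536 to 159 and 297 (-1.35). The plot of members at 23.5 h shows that the libraries of the groups did not overlap in any of these genes.

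**Figure D1:**
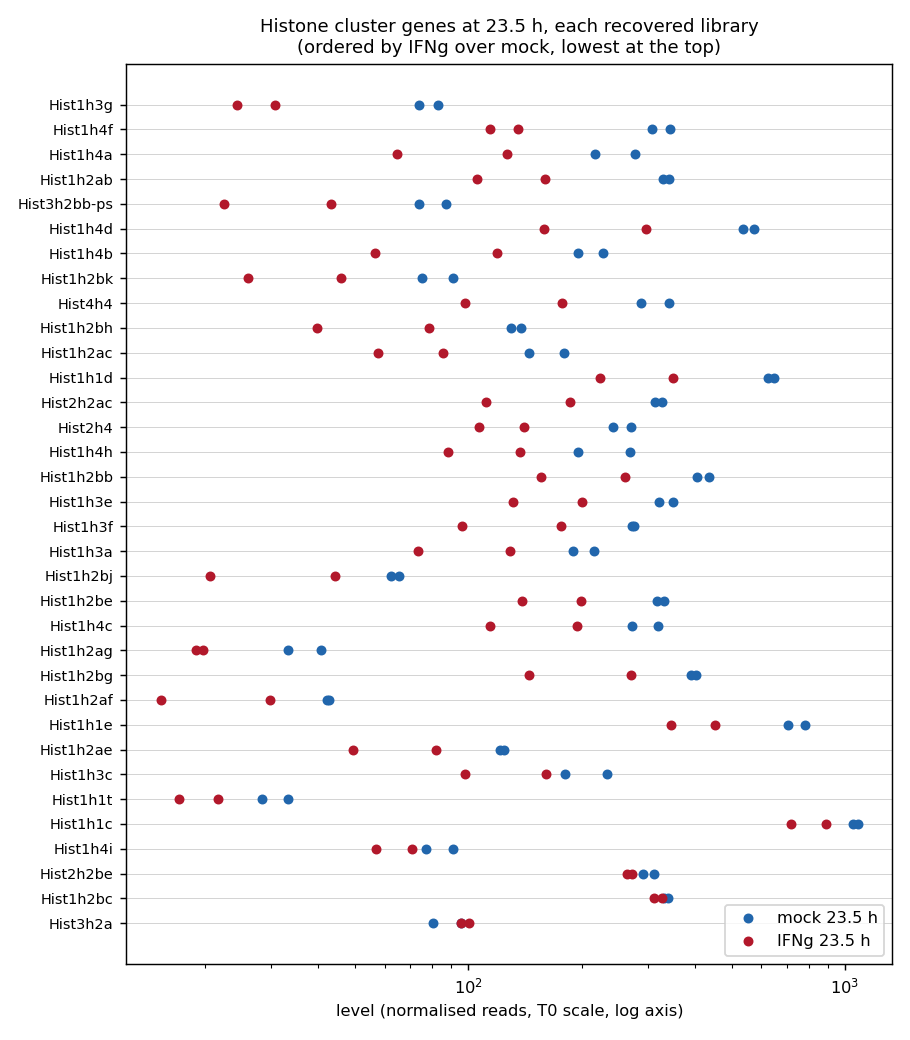
Level of each of the 34 histone cluster genes at 23.5 h (horizontal log axis, normalised reads on the T0 scale), with 1 point per recovered library, blue for mock and red for IFNγ. Both red points lie left of both blue points in 33 genes, and in Hist3h2a they lie to the right, where 1 red point nearly covers a blue one.

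Both IFNγ libraries lay below both mock libraries in 33 of 34 genes, a pattern that 27.4% of all genes tested showed, and above both in 1, as in 29.5% of all genes. The other 6 genes did not pass the test: Hist1h2af (-0.95, limma adjusted p = 0.062), Hist1h1t (-0.65, 0.16), Hist1h4i (-0.40, 0.17), Hist2h2be (-0.17, 0.25), Hist1h2bc (-0.07, 0.63) and Hist3h2a (0.16, 0.54). Hist1h2bc, an H2B gene, had 326 and 311 normalised reads after IFNγ and 338 and 331 after mock. Hist2h2be, also H2B, had 272 and 264 against 292 and 311. Hist3h2a, an H2A gene, had 101 and 95.7 against 95.7 and 80.4, so that its groups all but touched. The linker gene Hist1h1c passed with a smaller difference (717 and 892 against 1080 and 1047, log2 difference -0.41, limma adjusted p = 0.0075). The call count depends on the spread model: without a variance trend limma called 3 of the 34 lower, and in 1 fit over all 14 libraries it called 8. Lower calls over all genes fell too, from 755 in the main fit to 85 of 12452 without a variance trend. They were 77 of 12383 in the fit over all 14 libraries.

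Other RNAs without a long polyA tail were lower in the same libraries. Of 13 such RNAs listed for comparison, 9 were in the tables and 7 could be tested at 23.5 h, and all 7 were lower after IFNγ (median log2 difference -1.24). Rny1 and Rny3, the Y RNAs of the Ro particle, stood at 6.30 and 7.22 against 29.4 and 25.5 (-1.87, limma adjusted p = 0.0045) and 15.3 and 18.1 against 63.5 and 56.9 (-1.79, limma adjusted p = 0.00048). Rmrp, the RNA of RNase MRP, had 1984 and 3384 against 5267 and 3918 (-0.81, limma adjusted p = 0.014). Rpph1, the RNA of RNase P, differed by -0.86 (limma adjusted p = 0.015) and Rn7sk, the 7SK RNA that holds P-TEFb, by -0.76 (limma adjusted p = 0.012). An entry for 18S ribosomal RNA took a share of the gene total that was 9.47% after IFNγ and 12.4% after mock. Within the IFNγ pair, library 1 was the lower in 29 of 34 histone genes, with summed levels in a ratio of 1.42, and it was also the lower for Rmrp, Rpph1 and Rn7sk. The part of such RNAs' recovery in the histone result was not tested.

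**Figure D2:**
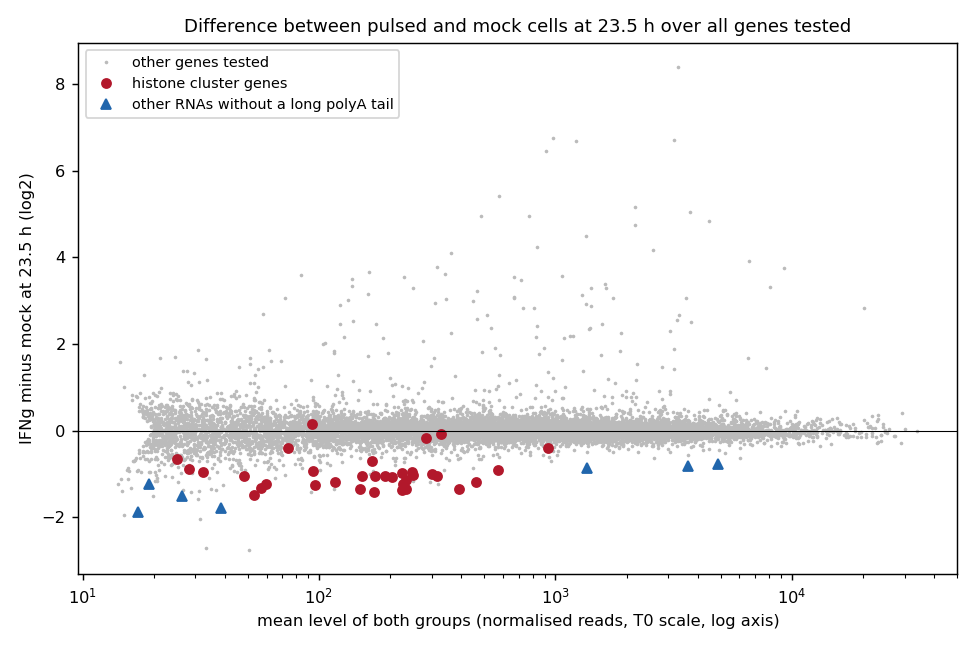
Difference between IFNγ and mock at 23.5 h (vertical axis, log2 of normalised reads + 1) against the mean level of both groups (horizontal log axis, normalised reads) for the 12452 genes tested. Red circles are the 34 histone cluster genes (median -1.05) and blue triangles the 7 other RNAs without a long polyA tail (median -1.24), and grey points are all other genes.

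Genes that act with the histones differed less at 23.5 h. Of 28 S phase genes, from the Mcm helicase to nucleotide synthesis, 6 were lower and 0 higher, with a median log2 difference of -0.07. Of 15 genes for histone transcription and 3′ processing 1 was lower, with a median of -0.08. Slbp, which binds the stem-loop, differed by -0.15 (limma adjusted p = 0.062), and Npat, the coactivator of histone transcription, by 0.12 (limma adjusted p = 0.12). Of 11 histone chaperones 1 was higher and 2 were lower (median -0.08). Replication-independent histone genes mostly make polyadenylated messages, though H2afx is known to make both an untailed stem-loop form and a tailed one. Of the 9 measured, 5 were lower and 0 higher (median -0.20). These included H2afj (-0.51, limma adjusted p = 0.00019), H1f0, a linker histone of differentiated cells (-0.35, limma adjusted p = 0.0047), H2afx (H2A.X, -0.21, limma adjusted p = 0.023) and the centromeric H3 gene Cenpa (-0.20, limma adjusted p = 0.011). H3f3b, which encodes H3.3, had a difference of 0.003 (limma adjusted p = 0.97).

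At 48 h most histone genes again had lower means after IFNγ, with Hist1h2bc, Hist2h2be, Hist1h4i and Hist1h1t the exceptions, and no gene passed the test. The summed level was 4241 and 5734 normalised reads after IFNγ and 7251 and 9094 after mock (61.0% of mock), with H4 at 42.9%, H3 at 49.2%, H2A at 53.5%, H1 at 69.1% and H2B at 81.4% of mock. Of 33 genes tested 0 were lower and 0 higher by limma, as was the case for 0% of all 12652 genes tested. At an unadjusted p under 0.05, 23 of the 33 and 342 of all genes were lower. The fit over all 14 libraries called 10 of the 33 lower, and 264 of all 12368 genes tested. Without IFNγ library 1 or library 2, limma takes the spread of the remaining library from the mock pair. The number of genes called then moved over all genes as well, so those counts are not compared here. Both IFNγ libraries lay below both mock libraries in 26 of 33 genes and above both in 1, against 19.3% and 19.8% of all genes tested. The median log2 difference was -1.02, against -0.01 over all genes.

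Hist4h4, an H4 gene, had 93.4 and 73.5 normalised reads after IFNγ and 205 and 255 after mock at 48 h (log2 difference -1.45, SE 0.22, limma adjusted p = 0.28). Hist1h4d had 199 and 227 against 468 and 576 (-1.28, limma adjusted p = 0.27), and Hist1h1d 157 and 228 against 431 and 527 (-1.33, limma adjusted p = 0.34). Hist1h2bc went the other way, with 346 and 603 against 253 and 306 (0.71, SE 0.29, limma adjusted p = 0.74). Its IFNγ libraries lay above both mock libraries but far from each other. In Hist1h1c, Hist3h2a, Hist2h2be, Hist1h4i, Hist1h3g and Hist1h2bj the libraries of the groups overlapped. Hist1h1t, at a highest group mean of 18.0 normalised reads, was just under the level filter of 20 and Hist1h2bj, at 22.2, just above it. The other RNAs without a long polyA tail had a median of -0.63 over 7 tested (0 called).

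In mock culture the histone genes stood near or above their T0 level at 23.5 h (80.6% to 130% of it), and most were far below it by 91 h. The summed level was 108% of T0 at 23.5 h, 94.5% at 48 h and 33.0% at 91 h (2960 and 2755 normalised reads). At 23.5 h, 4 of 34 genes were higher than T0 and 0 lower by limma, against 8.32% and 6.34% of the 12482 genes tested. The 4 were Hist1h2bc (338 and 331 against 253 and 262 in T0, log2 difference 0.38), Hist1h2ab (0.38), Hist1h2be (0.32) and Hist1h4d (0.28), and the share is near that of all genes. They were 0 without T0 library 1 and 2 without mock library 1, and 0 in the authors' deposited table. All comparisons with T0 share its 2 libraries, so they are not independent of each other.

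At 48 h in mock culture 13 of 34 genes were lower and 2 higher than T0, against 31.4% and 32% of the 12726 genes tested. The share lower (38.2%) was near that of all genes. The count of 13 was 1 in the fit over all 14 libraries, where 3459 of all 12478 genes were lower. It was 7 under a level filter of 100, where 3697 of all 10840 genes were lower. Hist1h1t fell from 37.3 and 39.3 to 11.1 and 12.7 normalised reads (log2 difference -1.61, limma adjusted p = 0.00079). Hist1h2bj, an H2B gene, fell from 51.0 and 67.7 to 18.0 and 26.4 (-1.39, limma adjusted p = 0.0012), and Hist1h3a, an H3 gene, from 184 and 206 to 74.4 and 109 (-1.11, limma adjusted p = 0.00038). Hist3h2a rose from 76.5 and 88.4 to 144 and 189 (0.99, limma adjusted p = 0.0005), as did Hist2h4 from 228 and 203 to 249 and 342 (0.44, limma adjusted p = 0.025). Without mock library 1 the genes called higher numbered 9, and without mock library 2 they numbered 1. Mock library 2 was the higher of the pair in all 34 genes. The 28 S phase genes were all lower at this time, with a median of -1.17 against -0.17 for the histone genes.

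By 91 h of mock culture 31 of 34 genes were lower than T0 and 3 higher, against 37.1% and 37.2% of the 12786 genes tested. A fall of 2-fold or more was seen in 30 of 34, against 10.9% of all genes. The median log2 difference was -3.89, and it did not move with the 4 genes without reads set at their bound. All 34 had entered the test through their T0 level. The family sums were 3.31% of T0 for H3, 12.1% for H4, 26.2% for H2A, 31.5% for H2B and 69.0% for H1. The H1 sum of 1708 normalised reads held 1569 of Hist1h1c, while Hist1h1d was at 3.37% of T0, Hist1h1e at 15.6% and Hist1h1t at 4.68%. The median log2 difference per gene was -6.13 in H3, -4.31 in H2B, -3.67 in H2A, -3.25 in H1 and -3.00 in H4, so H4 was lowest but one by its sum and fell least by its median. The 28 S phase genes were all lower too (median -3.38), as were 13 of 15 histone processing and transcription genes (median -0.66, 2 higher) and 8 of 9 replication-independent histone genes (median -0.84, 1 higher). Among them Slbp fell by 1.30 on the log2 scale, Casp8ap2, which acts at histone loci, by 1.25, and Cenpa by 5.17.

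Hist1h2bk, Hist1h2bj, Hist1h3g and Hist1h2af had 0 reads in both mock libraries at 91 h. Against a floor of 3 reads over both libraries, Hist1h2bk and Hist1h3g were at least 39.1-fold lower than their T0 level of 72.2 normalised reads, Hist1h2bj at least 32.2-fold and Hist1h2af at least 21.6-fold. Hist1h2bh kept 1 read in the pair, from 139 and 118 reads in T0. Hist1h3a kept 3 reads, from 202 and 189. Of the abundant genes, Hist1h1d fell from 601 and 728 to 25.1 and 19.7 normalised reads (-4.83, limma adjusted p = 2.1e-11), Hist1h2bb from 328 and 408 to 21.9 and 14.05 (-4.31, limma adjusted p = 1.1e-09) and Hist1h4f from 281 and 323 to 9.83 and 14.05 (-4.57, limma adjusted p = 6.1e-10). Hist1h1e kept 15.6% of T0, Hist1h4c 20.3% and Hist2h4 22.7%.

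**Figure D3:**
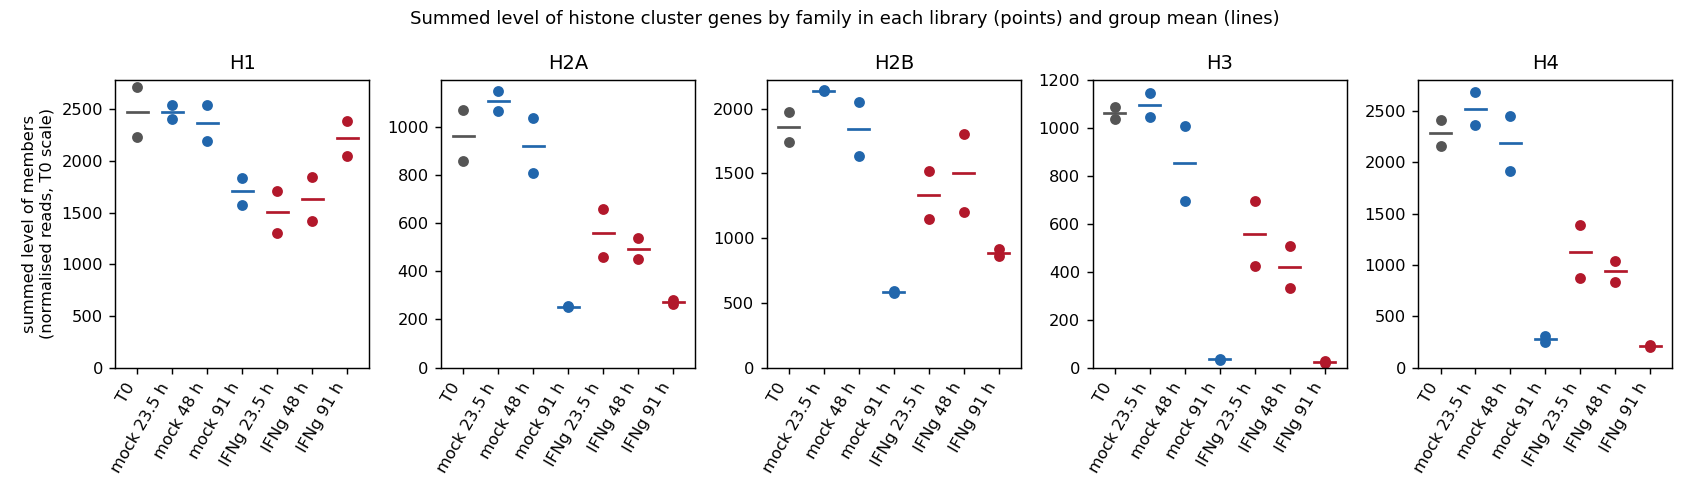
Summed level of the histone cluster genes of each family (vertical axis, normalised reads on the T0 scale) in T0 (grey), mock (blue) and IFNγ (red) groups, with 1 point per recovered library and a line at the group mean. H3 and H4 end at 3.31% and 12.1% of T0 in mock at 91 h, and H1 at 69.0%.

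Pulsed cells stood below T0 from the first time measured. Their summed level was 58.8% of T0 at 23.5 h, 57.7% at 48 h and 41.8% at 91 h. Other RNAs without a long polyA tail were also lower than T0 at 23.5 h in 8 of 8 tested. Their median log2 difference was -1.43, against -0.94 for the histone genes. At 48 h 2 of 8 were lower, and at 91 h 3 were lower and 2 higher. The part of such RNAs' recovery in the fall below T0 was not tested. At 23.5 h, 29 of 34 genes were lower than T0 and 1 higher (Hist1h2bc, 0.31), against 18% and 20% of the 12557 genes tested. The count of 29 was 6 without a variance trend, 9 in the fit over all 14 libraries and 18 in the authors' deposited table. Lower calls over all genes went from 2254 in the main fit to 1040 of 12557 without a variance trend. They were 454 of 12439 in the fit over all 14 libraries. The 1 higher gene was lost in the fit over all 14 libraries and in the authors' deposited table. At 48 h, 23 were lower and 1 higher (Hist3h2a, 0.95), against 13% and 13.5% of 12821. The count of 23 fell without T0 library 1 or library 2, where limma takes the spread of the remaining T0 library from the IFNγ pair. The number of genes lower then fell over all genes as well, so those counts are not compared here. At 91 h, 30 were lower and 3 higher, against 37.4% and 38.1% of 12785. The family sums were then 2.32% of T0 for H3, 9.12% for H4, 28.4% for H2A, 47.9% for H2B and 89.7% for H1. The H1 sum of 2221 normalised reads held 2138 of Hist1h1c, while Hist1h1d was at 2.28% of T0, Hist1h1e at 9.25% and Hist1h1t at 0 reads. The median log2 difference per gene was -5.61 in H3, -5.19 in H2B, -4.70 in H2A, -4.35 in H1 and -3.24 in H4, an order unlike that of the sums. Hist1h3c fell from 238 and 223 normalised reads in T0 to 0 and 1.23, and Hist1h2ab from 240 and 276 normalised reads to 2.21 and 3.69. Hist1h2bk, Hist1h2ag and Hist1h1t had 0 reads, at least 41.4-fold, 19.4-fold and 22.0-fold lower than T0. With the genes at 0 set at these bounds, the median log2 difference at 91 h was -4.40 in place of -4.56.

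Hist1h1c, Hist1h2bc, Hist3h2a and Hist2h2be stood apart from the other 30 genes, and they were singled out after their values were seen. In mock at 91 h they held 73.4% to 244% of their T0 level, while the highest of the other 30 was at 22.7%. Hist1h1c rose from 948 and 1121 normalised reads in T0 to 1714 and 1423 (log2 difference 0.60, limma adjusted p = 4.1e-05). Hist3h2a rose from 76.5 and 88.4 to 196 and 206.5 (1.28, limma adjusted p = 3.4e-06), and Hist1h2bc from 253 and 262 to 345 and 288 (0.29, limma adjusted p = 0.028). The Hist1h2bc call passed in 6 of 11 settings (limma adjusted p up to 0.24), and the adjusted p in the authors' deposited table was 0.107. Hist2h2be fell from 265 and 274 to 175 and 221 (-0.45, limma adjusted p = 0.0053), a call that passed in 7 of 11 settings (limma adjusted p up to 0.08). Their share of all histone reads went from 19.0% in T0 to 79.9% in mock and 88.8% after IFNγ at 91 h. By annotation, 2 of the 4 (Hist1h2bc and Hist2h2be) have no stem-loop in the transcript, and Hist1h1c and Hist3h2a have long ends, 840 and 1643 bases past the motif.

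**Figure D4:**
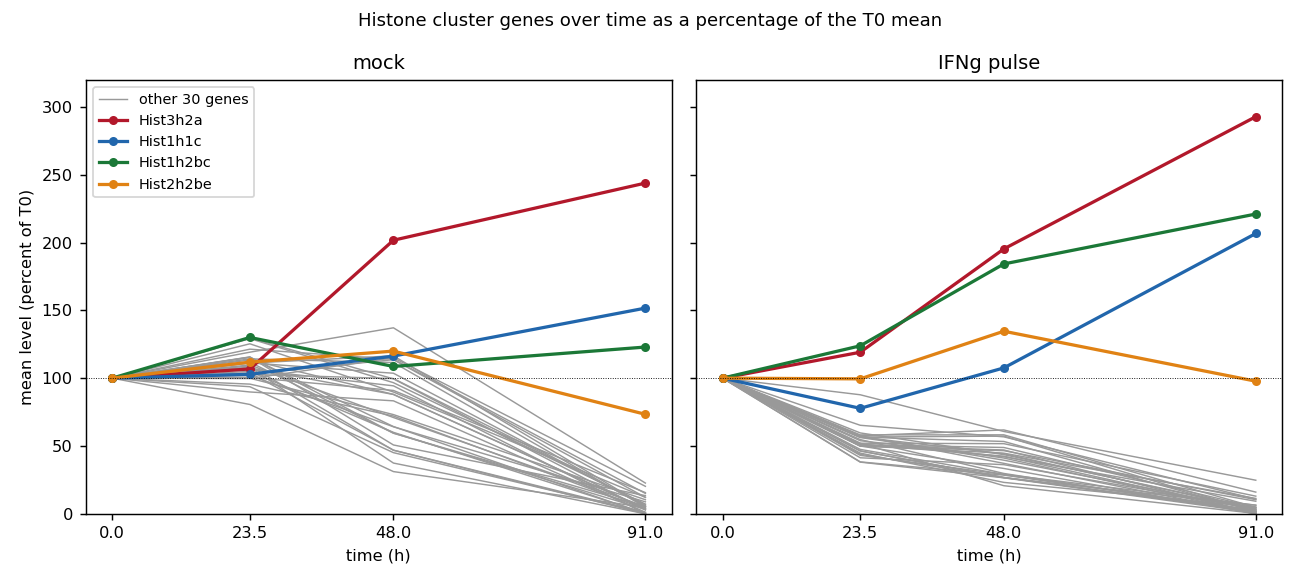
Mean level of each histone cluster gene as a percentage of its T0 mean (vertical axis) against time in hours (horizontal axis), in mock (left) and IFNγ-pulsed cells (right). The 4 coloured genes end at 73.4% or more of T0 at 91 h, while the 30 grey genes end at or below 22.7% in mock and 24.7% after IFNγ.

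The annotated end alone did not sort the genes. All 12 genes with a short end were lower than T0 at 91 h in mock (median -4.83), as were 16 of 18 with a long end (median -3.46) and 3 of the 4 without the motif (median -2.89), where 37.1% of all genes tested were lower. Hist1h2af and Hist3h2bb-ps, which also lack the motif in their annotated transcripts, went to 0 and 1 reads in mock. Hist1h1d, with the longest stretch past the motif (4884 bases), kept 3.37% of T0, and Hist4h4, with 2445 bases, 10.4%. At 23.5 h, 12 of 12 genes with a short end, 15 of 18 with a long end and 1 of 4 without the motif were lower after IFNγ, where 6.06% of all genes tested were lower. Which 3′ end the B16 transcripts used cannot be read from counts per gene.

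At 91 h the IFNγ and mock groups were compared over the 15 genes that still reached a level of 20, and 3 were higher and 1 lower after IFNγ, against 8.75% and 7.53% of the 12435 genes tested. Hist1h2bc had 588 and 551 normalised reads after IFNγ and 345 and 288 after mock (log2 difference 0.85, SE 0.10, limma adjusted p = 3.1e-05). Hist1h1c had 1968 and 2308 against 1714 and 1423 (0.45, SE 0.08, limma adjusted p = 0.0016), and Hist2h2be 271 and 256 against 175 and 221 (0.42, SE 0.13, limma adjusted p = 0.036). In these 3 genes the IFNγ libraries were both above both mock libraries. Hist3h2a, at 238 and 245 against 196 and 206.5, did not pass (0.26, limma adjusted p = 0.14). Hist1h1e was lower, at 71.7 and 65.1 against 96.1 and 135 (-0.73, SE 0.19, limma adjusted p = 0.018), and Hist1h4c did not pass (-0.63, limma adjusted p = 0.079). Without a variance trend and in the fit over all 14 libraries 0 of these genes passed in either direction. Of all 12435 genes tested, 71 were higher and 36 lower without a variance trend. In the fit over all 14 libraries 92 of 12171 were higher and 67 lower. Hist1h1e also failed without mock library 2, IFNγ library 1 or IFNγ library 2. Hist1h2bg, at 20.1, was just above the level filter and Hist1h4i, at 18.0, just under it. The summed level was 127% of mock, with H2B at 152%, H1 at 130%, H2A at 108%, H4 at 75.6% and H3 at 70.1%. Hist1h1c, Hist1h2bc, Hist3h2a and Hist2h2be made up this excess, with a mean sum of 3212 normalised reads after IFNγ and 2284 after mock, while the other 30 genes summed to 405.5 after IFNγ and 573 after mock. The other RNAs without a long polyA tail had a median of -0.13 over 5 tested (0 called), and the 18S share was 11.8% against 14.2%.

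The change of the IFNγ-mock difference from 23.5 to 91 h was tested in limma over 8 libraries. It was positive in 6 of 34 genes and negative in 0, against 3.94% and 5.34% of the 12525 genes tested. All 34 genes entered through their 23.5 h level, and 19 were under the level of 20 in both groups at 91 h. In such genes the added 1 pulls the 91 h difference towards 0. A gene that was lower at both times then leans to a positive change by construction. Hist1h4a, Hist1h4f and Hist1h2bh, among the 6, were under the level of 20 at 91 h. Of these, only Hist1h4f had a negative difference at 91 h (-0.162). In Hist1h4a (0.531) and Hist1h2bh (1.1) it was positive, so the added 1 makes their change smaller. The count of 6 was 1 without a variance trend, 0 in the fit over all 14 libraries, 2 without library 1 of mock or of IFNγ at 23.5 h and 3 without library 2 of mock at 23.5 h. For Hist1h2bc the difference moved from -0.07 to 0.85 (change 0.92, SE 0.13, limma adjusted p = 0.0006), and for Hist1h1c from -0.41 to 0.45 (change 0.86, SE 0.15, limma adjusted p = 0.002). Of the other RNAs without a long polyA tail, 2 of 7 tested also changed upward (Rny3 by 2.06 and n-R5s193, a 5S ribosomal RNA gene, by 2.04) and 0 downward. The S phase genes went the other way, with 7 of 28 changed downward and a median of -0.24.

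Core histone genes often start back to back from a shared promoter, and 6 such pairs with starts less than 1000 bases apart were among the 34 genes. In 3 of them, grouped after their values were seen, the neighbours parted over time. Hist1h2ac (chromosome 13, minus strand, start site at 23683948) and Hist1h2bc (plus strand, 23684199) start 251 bases apart. In mock at 91 h Hist1h2ac had gone from 105 and 146 normalised reads in T0 to 10.9 and 7.02, while Hist1h2bc stood at 345 and 288. Hist2h2ac (chromosome 3, minus strand, 96220880) and Hist2h2be (plus strand, 96221119) start 239 bases apart, and Hist2h2ac went from 280 and 347 to 32.8 and 22.5 while Hist2h2be kept 175 and 221. Hist3h2bb-ps (chromosome 11, minus strand, 58954512) and Hist3h2a (plus strand, 58954685) start 173 bases apart, and went to 1.09 and 0 and to 196 and 206.5. The pairs of Hist1h2ae with Hist1h2bg, Hist1h2ag with Hist1h2bj and Hist1h2bh with Hist1h3f fell together, to between 0% and 5.80% of T0.

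**Figure D5:**
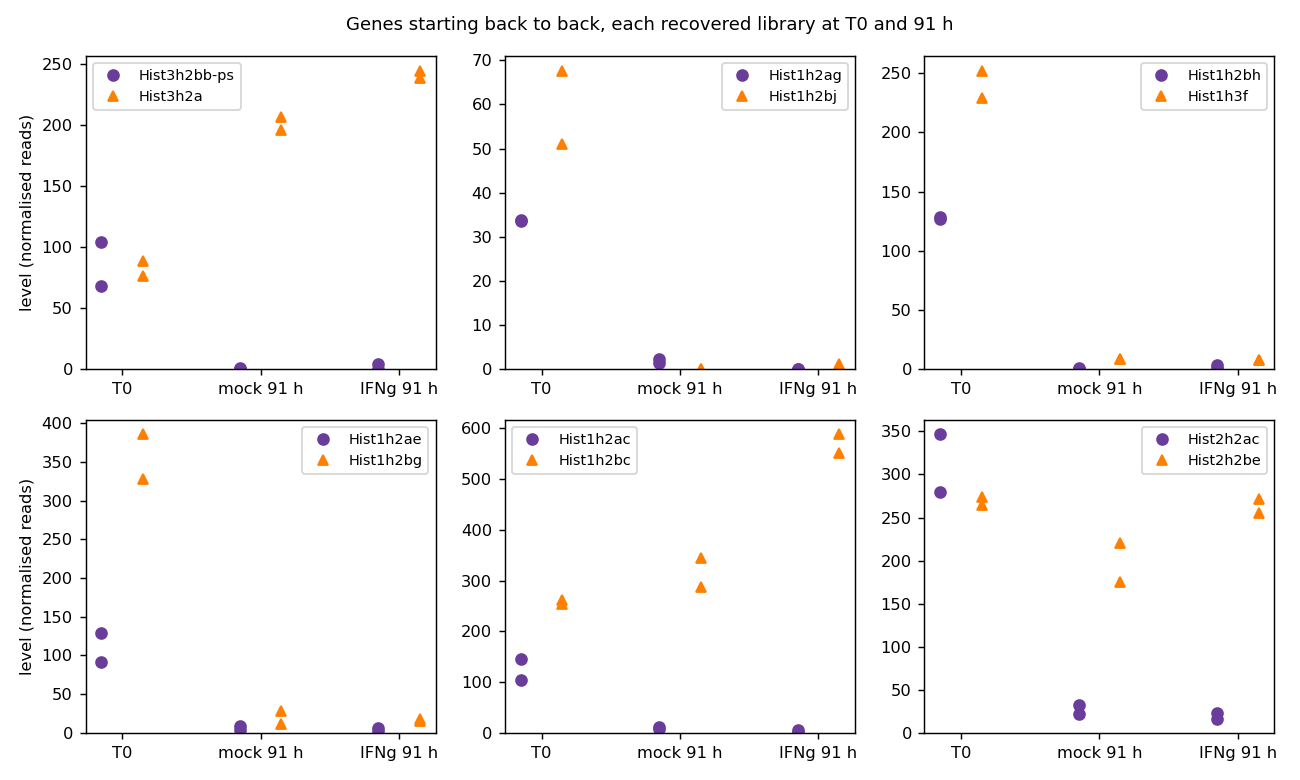
Level of the 6 pairs of histone genes that start back to back (vertical axis, normalised reads) in T0, mock at 91 h and IFNγ at 91 h, with 1 point per recovered library, circles for the gene on the minus strand and triangles for its neighbour on the plus strand. In 3 pairs the triangles stay up at 91 h while the circles fall, and in the other 3 both fall.

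The promoters of the 3 pairs that parted are printed because each window (RefSeq, GRCm38.p6, 250 bases before to 50 after the start) covers the start sites of both neighbours. Capitals mark the octamer, the letters ATTTGCAT, which both strands were searched for and which appear here as their reverse complement.
Hist1h2ac, chr13:23683910-23684209, minus strand: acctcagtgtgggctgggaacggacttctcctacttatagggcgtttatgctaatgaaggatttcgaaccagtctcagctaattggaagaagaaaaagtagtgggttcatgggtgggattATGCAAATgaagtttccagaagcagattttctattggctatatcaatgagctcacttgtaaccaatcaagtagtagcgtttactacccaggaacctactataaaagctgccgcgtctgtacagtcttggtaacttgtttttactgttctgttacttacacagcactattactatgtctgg
Hist2h2ac, chr3:96220831-96221130, minus strand: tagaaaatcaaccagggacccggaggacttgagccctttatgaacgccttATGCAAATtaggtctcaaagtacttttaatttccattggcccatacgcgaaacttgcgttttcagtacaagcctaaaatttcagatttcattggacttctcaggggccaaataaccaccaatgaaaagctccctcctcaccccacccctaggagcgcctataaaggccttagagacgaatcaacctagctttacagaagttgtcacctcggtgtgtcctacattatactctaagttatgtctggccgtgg
Hist3h2a, chr11:58954435-58954734, plus strand: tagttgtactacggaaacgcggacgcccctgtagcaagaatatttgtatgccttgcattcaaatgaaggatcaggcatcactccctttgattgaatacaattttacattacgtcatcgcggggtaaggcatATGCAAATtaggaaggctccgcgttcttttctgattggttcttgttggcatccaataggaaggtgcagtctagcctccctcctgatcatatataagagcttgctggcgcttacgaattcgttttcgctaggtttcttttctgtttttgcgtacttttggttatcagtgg
RefSeq promoters were found for 27 of the 34 genes. The octamer was in 8 of the 27 (29.6%), against 1.74% of 32851 promoters, and these were 5 of 7 H2A and 3 of 6 H2B genes. The windows of Hist1h2ae and Hist1h2bg overlap, so the same octamer was counted in both genes. CCAAT, on either strand, was in 22 (81.5% against 37.4%). TATAAA, searched on the strand of the gene only, was in 10 (37.0% against 8.32%). The octamer was also in the windows of Hist1h2ae and Hist1h2bg, a pair that fell together. It was not in those of Hist1h2ag, Hist1h2bj and Hist1h2bh, from the other pairs that fell together, and no promoter was found for Hist1h3f. The part of the octamer in the parting of the pairs was not tested.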

How the data were processed

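PolyA RNA of B16 cells was profiled in 7 groups. The authors used STAR 2.5.0a, Picard 1.124, HTSeq 0.5.3 and DESeq, with the build given as mm10 and GRCm38, per the submitters' processing notes. Per the file headers, each of 6 tables gives the authors' mean signal per gene at T0 and in 1 other group, a log2 ratio, a p-value and an adjusted p-value by DESeq. Entries that name no gene (57.1% to 70.3% of the listed total in 5 of the 6 tables) were left out. Each deposited mean fits whole reads of 2 libraries divided by size factors, and 156474 of 157036 values (99.6%) gave exactly 1 pair of reads, including all 408 of the histone genes. T0 reads solved from different tables were identical in 64532 of 64532 values. Libraries are numbered by size factor only. On simulated means the recovery gave exactly 1 pair for 99.8% of 78518 values, with 0 wrong. The test was run on simulated reads with 1 spread for all libraries. That setting lacks the unequal spread of the real pairs, so it does not check calls that depend on the spread.

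Libraries were put on 1 scale through the T0 column that all tables share. limma 3.58.1 in R 4.3.3, with a variance trend, was run on log2(normalised reads + 1), with 4 libraries in a comparison and 8 for the change with time. Genes entered where any group compared reached a level of 20, with two-sided p-values adjusted by Benjamini-Hochberg over all genes tested. The log2 differences understate changes of low genes. Alternatives were another spread model, pseudocount, filter and scaling, each library left out, and the authors' own adjusted p. Named genes were, for each family, the 3 highest in T0, those next to the filter and those without a stem-loop. For some comparisons, genes among those with the largest called differences per direction were named, but not every such gene. The other genes named with values were chosen after their values were seen. The histone genes and all lists were chosen with earlier results of these data known. Of the 34 genes 33 matched GENCODE M21 by ID and Hist1h2bh by symbol. Counting intervals and floors cover counting error only.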

Additional observations from a re-analysis of the deposited data

Results flagged for a closer look

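In 6 histone genes the difference between IFNγ and mock was not the same at 23.5 and 91 h by limma's test of the change itself, where 3.94% of all genes tested changed upward. The count was 1 without a variance trend and 0 in the fit over all 14 libraries. Of 15 settings, Hist1h2bc passed in 14, Hist1h1c in 13, Hist1h4a in 10, Hist1h4f in 7, and Hist2h2be and Hist1h2bh in 6 each. On the log2 scale it changed by 0.919 in Hist1h2bc (SE 0.13, limma adjusted p = 0.0006), by 0.859 in Hist1h1c (SE 0.15, limma adjusted p = 0.002) and by 0.589 in Hist2h2be (SE 0.16, limma adjusted p = 0.037). These are 3 of the 4 genes that kept most of their T0 level at 91 h, and both groups held over 150 reads per library there. Hist1h4f changed by 1.21 (SE 0.32, limma adjusted p = 0.028), from -1.38 to -0.162. Hist1h4a changed by 1.96 (SE 0.46, limma adjusted p = 0.017), from -1.43 to 0.531, and Hist1h2bh by 2.35 (SE 0.69, limma adjusted p = 0.049), from -1.25 to 1.1. The last 3 rest on few reads at 91 h: 9 and 10 in mock and 10 and 8 after IFNγ for Hist1h4f, 6 and 5 against 7 and 11 for Hist1h4a, and 1 and 0 against 3 and 1 for Hist1h2bh.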

How the results depend on the processing

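Of 220 alternative values for the 20 counts of called histone genes, 175 stayed within 1.5 times the main count, 45 moved and 0 reversed. The cause of the moves was not tested, apart from the filter of 100, under which 26 genes were tested. Without a variance trend, the counts became 3 lower for IFNγ against mock at 23.5 h, 0 higher and 0 lower at 91 h, 0 higher for mock at 23.5 h and 1 higher at 48 h against T0, 6 lower for IFNγ at 23.5 h against T0, and 1 gene for the change with time. In 1 fit over all 14 libraries they became 8 lower at 23.5 h, 10 lower at 48 h, and 0 higher and 0 lower at 91 h for IFNγ against mock. Against T0 that fit gave 0 higher for mock at 23.5 h, 1 higher and 1 lower for mock at 48 h, 0 higher and 9 lower for IFNγ at 23.5 h and 2 higher for IFNγ at 48 h, and 0 genes for the change with time. By the adjusted p of the authors' deposited table, the counts were 0 higher for mock at 23.5 h, 1 higher for mock at 48 h, 0 higher and 18 lower for IFNγ at 23.5 h and 2 higher for IFNγ at 48 h. A filter of 100 left 7 lower for mock at 48 h, where 3697 of all 10840 genes tested were lower. Calls over all genes moved with the spread model as well. For IFNγ against mock at 23.5 h, 755 of all genes tested were lower in the main fit. Without a variance trend 85 were lower, and 77 were in the fit over all 14 libraries.

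With each library left out in turn, the counts for IFNγ against mock ranged from 23 to 28 lower at 23.5 h, from 0 to 2 higher and 0 to 22 lower at 48 h, and from 2 to 3 higher and 0 to 1 lower at 91 h. Against T0 they ranged from 0 to 6 higher for mock at 23.5 h, from 1 to 9 higher and 10 to 19 lower at 48 h, and from 2 to 3 higher and 30 to 31 lower at 91 h. For IFNγ against T0 they ranged from 0 to 1 higher and 21 to 29 lower at 23.5 h, and from 0 to 4 higher and 0 to 30 lower at 48 h. At 91 h they stayed at 3 higher and 30 lower. The change with time ranged from 2 to 7 genes, with 2 without mock 23.5 h library 1, 3 without its library 2 and 2 without IFNγ 23.5 h library 1. The 1 higher gene for IFNγ at 23.5 h against T0 was lost without T0 library 1 or IFNγ library 1. Each of these fits leaves 1 library in a group, and limma takes its spread from the other groups compared. Calls over all genes moved with the library left out as well, most of all where the IFNγ libraries at 48 h were compared. The ranges therefore do not show a move of the histone genes apart from all genes. No paired analysis was possible because the recovered libraries carry no replicate number from the labels. Genes with few reads at 91 h limit what that time can show.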
